A study of Homo sapiens with 20 samples.

Results

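STAG2 sites that appeared upon STAG2 KD were examined in ChIP-seq peak lists of M14, an established human melanoma line carrying a doxycycline-inducible shRNA against STAG2. The peaks of the 4 STAG2 lists were merged into 130122 union sites on chromosomes 1 to 22 and X. Of these, 374 had a peak in both STAG2-KD lists and in neither WT list, which is 0.287% of the union sites, and these are called gained sites. They were chosen by the STAG2 peak calls themselves, so their gain of STAG2 is not a result. Sites in all 4 STAG2 lists (50010) are called retained, and sites in both WT lists and neither STAG2-KD list (3492) are called lost.

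The series holds 2 WT and 2 STAG2-KD libraries for each of STAG1, STAG2, CTCF and SMC1A, with 1 list per library, and an input library for each culture and replicate. In replicate 1, WT cells carried the same shRNA construct without doxycycline and STAG2-KD cells received doxycycline for 5 days. The labels of replicate 2 name WT and STAG2-KD cells of M14 but neither the construct nor a treatment. The replicates also differ in chromatin extraction, in size selection (beads or gel) and in the threshold of the lists. WT and STAG2-KD are therefore set side by side within a replicate. The permutation tests below pool the 2 lists of each culture over the replicates. The 16 lists held 58418 to 150282 peaks on these chromosomes. For the knocked-down protein itself, STAG2, replicate 1 had 79048 peaks in WT and 58418 in STAG2-KD, and replicate 2 had 118984 and 106135.

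Cohesin is a ring-shaped complex that holds DNA strands together and forms chromatin loops. SMC1A is part of its core ring, and each ring carries either STAG1 or STAG2, which are alternative subunits. CTCF is a zinc finger protein that binds DNA through a long motif and at which cohesin often stops, and cohesin is also found at active promoters and enhancers. A gained STAG2 site could therefore be read beside the SMC1A, STAG1 and CTCF lists, none of which entered the choice of sites.

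The gained sites fell into 3 kinds. At 175 sites (46.8%, 95% Wilson interval 41.8 to 51.9) the midpoint lay within 1 kb of an annotated transcript start, here called promoter sites. At 29 sites (7.75%) the summit lay in an array of the 5-base repeat GGAAT, a unit of human satellite DNA around centromeres. The other 170 sites (45.5%) were distal and not in such an array. The following sequences, centred on the STAG2-KD summit of replicate 1 and read on the plus strand of hg19, show these kinds. The first group comes from promoter sites among the 10 strongest gained sites and was chosen for the letters CCAAT or their reverse complement, marked in capitals. The windows of the other strong promoter sites described below, at IFTAP, THTPA and EFCAB6, did not hold these letters.

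EXOSC2 promoter, chr9:133568900-133569000: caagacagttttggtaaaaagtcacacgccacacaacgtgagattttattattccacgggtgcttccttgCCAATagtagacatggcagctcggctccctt
FBXO48 and APLF promoter, chr2:68694446-68694546: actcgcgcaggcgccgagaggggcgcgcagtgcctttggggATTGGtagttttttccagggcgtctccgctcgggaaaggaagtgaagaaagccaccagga

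The next sequence belongs to the gained site at which STAG1, CTCF and SMC1A were each gained as well, in an intron of LRP1B, and its capitals again mark CCAAT in reverse complement. At the other distal sites as a whole CCAAT was found near 24.1% of summits and in 27.1% of windows 5 kb away.

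LRP1B intron, chr2:141452881-141452981: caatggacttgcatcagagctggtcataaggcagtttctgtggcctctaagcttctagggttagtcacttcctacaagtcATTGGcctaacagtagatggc

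The last group shows satellite sites, chosen for their high number of repeat copies, with GGAAT or its reverse complement ATTCC in capitals.

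Satellite site on chromosome 2, chr2:89877444-89877544: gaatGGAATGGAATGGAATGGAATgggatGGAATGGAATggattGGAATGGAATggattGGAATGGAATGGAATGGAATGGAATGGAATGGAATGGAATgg
Satellite site on chromosome 4, chr4:49114718-49114818: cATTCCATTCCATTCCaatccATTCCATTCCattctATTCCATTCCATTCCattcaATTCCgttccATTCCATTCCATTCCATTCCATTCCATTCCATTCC

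In each of these satellite windows the repeat filled 80 bases, whereas the promoter windows carried 1 copy of a short motif in unrepeated sequence.

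The gained sites were weak sites of their lists, and this is a description, since presence in these lists chose them. Fold enrichment is the ratio that MACS2 gives of the pileup at the summit to the expected background, and a percentile ranks it within its list. The median fold enrichment over the gained sites was 4.45 (range 2.02 to 13.5) in the first STAG2-KD list and 3.59 (range 1.36 to 8.03) in the second. Retained sites had medians of 11.003 and 11.4. The median percentile of the gained sites was 13.9 and 32.7 in the same order, while retained sites had 56.1 and 76.3. None of the 374 sites reached a mean percentile of 60 over the replicates, a level passed by 29176 of the 50010 retained sites. The summits of the replicates lay a median of 48 bp apart at gained sites and 39 bp at retained sites.

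**Figure D1:**
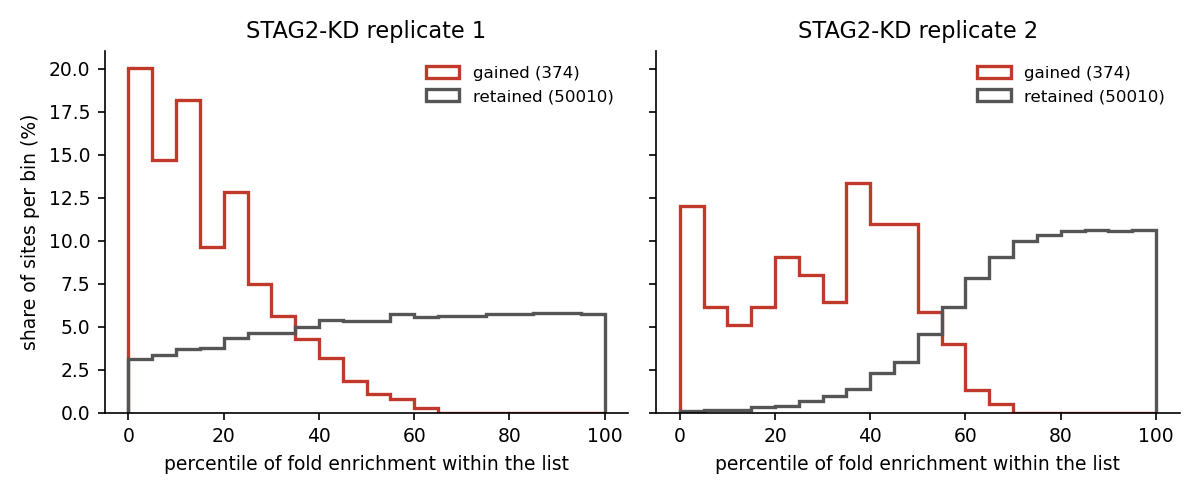
Histograms of the within-list percentile of fold enrichment (x axis, bins of 5) as share of sites (y axis, %) for the 374 gained and 50010 retained STAG2 sites in each STAG2-KD list. Gained sites pile up at low percentiles, with medians of 13.9 and 32.7, and retained sites at higher ones, with medians of 56.1 and 76.3.

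Just inside the threshold, the weakest gained peaks had a −log10 q-value of 2.001 in replicate 1 and 0.354 in replicate 2, where the list was limited by p-value. Just outside it stood 2193 sites with a peak in both STAG2-KD lists and in 1 WT list. At 2161 of these the WT peak was in replicate 2, with a median −log10 q-value of 5.19, and at 32 it was in replicate 1. The median distance from a gained site to the nearest WT STAG2 summit was 10064 bp in replicate 1 and 6501 bp in replicate 2. A WT STAG2 peak lay within 500 bp of 11 gained sites in replicate 1 and of 51 in replicate 2. The number of gained sites depends on the threshold, and was 732 with a −log10 q-value of at least 5 in every list and 2402 with the same number of strongest peaks from each STAG2 list.

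Sites gained within 1 replicate were also read in the other. Their overlap is the gained sites themselves, so these shares describe the choice of sites and support nothing. Of the 2769 sites gained within replicate 1, 374 (13.5%) had a STAG2-KD peak alone in replicate 2 and 2 (0.0722%) had a WT peak alone, while 78.0% had both. Over all union sites, replicate 2 had a STAG2-KD peak alone at 9.76%, a WT peak alone at 20.2% and both at 68.8%. Of the 12699 sites gained within replicate 2, 2.95% had a STAG2-KD peak alone in replicate 1, 0.213% a WT peak alone, and 96.6% had neither. The corresponding shares over all union sites were 2.13%, 15.9% and 42.8%. Most sites gained within a replicate had no matching gain in the other.

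Promoters held a larger share of gained than of other STAG2 sites. The share was 46.8% of the gained sites, 24.4% of the retained, 12.1% of the lost and 21.0% of all union sites. Introns showed the reverse order, with 22.2% of gained, 42.2% of retained and 55.2% of lost sites. Exons held 4.28% of the gained sites and intergenic sequence 26.7%. The median distance to a transcript start was 1528 bp for gained, 6292 bp for retained and 11462 bp for lost sites. Sites are not replicates, and these shares were not tested. The promoter share was 42.9% of the 2769 sites gained within replicate 1, whatever the other showed, and 19.3%, below that of all union sites, of the 12699 gained within replicate 2. The lists of replicate 2 also had the looser threshold, so that the replicate and the threshold cannot be told apart here.

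**Figure D2:**
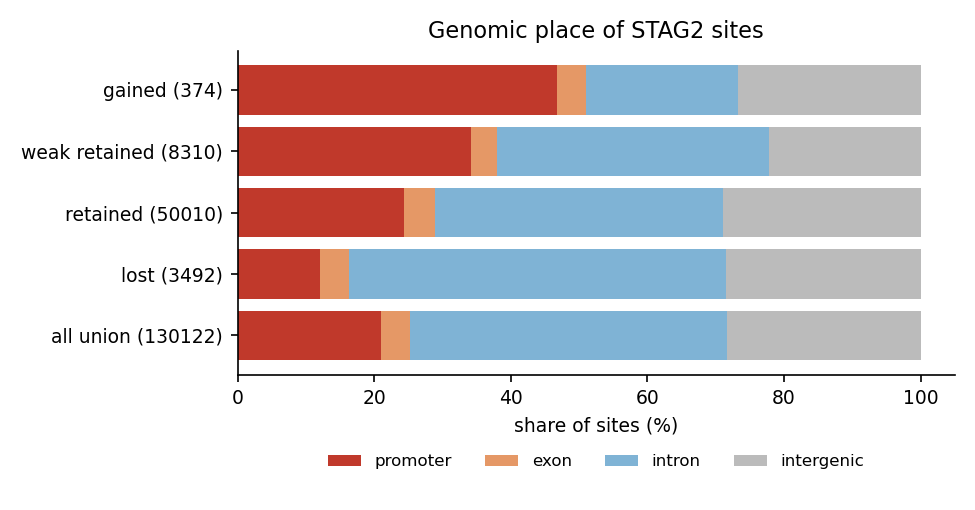
Stacked bars of the share of sites (x axis, %) in promoters, exons, introns and intergenic sequence for gained, weak retained, retained, lost and all union STAG2 sites, with the number of sites in brackets. The promoter part is 46.8% at gained and 12.1% at lost sites.

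Since weak sites could lie at promoters more often, gained sites were set beside retained sites of like strength, by the mean percentile in the STAG2-KD lists. From percentile 10 to 20, 50% of 86 gained and 38.9% of 656 retained sites were promoter sites, and from 20 to 30 the shares were 44.5% of 110 and 35.8% of 2475. From percentile 30 to 40, 54.4% of 79 gained and 32.0% of 5004 retained sites were promoter sites. From 40 to 50 the shares were 68.0% of 25 and 30.6% of 6036, and from 50 to 60 they were 71.4% of 14 and 26.6% of 6488. Below percentile 10 the order was the opposite, with 21.7% of 60 gained and 53.7% of 175 retained sites, and 26 of these 60 gained sites were in satellite arrays. Without them the share of gained sites in this bin was 38.2%. In these bins the promoter share of retained sites fell with strength. The gap between gained and retained sites was widest in the bins from 40 to 60, which hold few gained sites.

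The promoter sites sat close to the start. The summit was a median of 64 bp from a transcript start, and at 113 of 175 sites (64.6%) it was within 100 bp, against 43.6% of the 12204 retained promoter sites and 53.5% of the 2838 weak ones among them, with a mean percentile below 40. Protein-coding genes started within 1 kb of 156 of them (89.1%), against 79.6% of retained and 85.8% of weak retained promoter sites. At 32 (18.3%) protein-coding starts of both strands lay within 1 kb, against 7.60% and 9.62%. Chromosome 19, which is rich in genes, held 25 of the 175 (14.3%), against 5.62% of retained and 4.76% of weak retained promoter sites. The median GC content of the 201 bp around the summit was 61.2%, against 62.7% at retained and 65.7% at weak retained promoter sites.

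For comparison, retained sites with a mean percentile below 40 are called weak retained sites (8310). This limit was chosen after the values were seen. Their median percentile in replicate 1 was 12.8, close to that of the gained sites, but in replicate 2 it was 49.1 and thus higher than at gained sites. Short motifs were counted on either strand in the 201 bp around the summit. A short core of the CTCF motif was found at 6.42% of gained sites (24 of 374), against 28.7% of retained and 15.9% of all union sites. In the sequence 5 kb away the share was 2.94% for gained sites. At promoter sites the share was 6.29%, against 13.1% of weak retained promoter sites. The core is short and misses many CTCF sites, so its shares serve for comparison alone.

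At promoter sites, 3 further motifs were chosen from a count of all short words at these same sites, so that they are a description. CCAAT, the letters bound by NF-Y, was found at 36.6% of the 175 gained promoter sites, against 17.5% of the 2838 weak retained and 17.6% of all retained promoter sites. ATGGCGG, part of the YY1 motif, was found at 28 of the 175 (16%), against 6.17% and 4.62%. ACTACAA, part of the ZNF143 motif, was found at 10.3%, against 1.48% and 2.15%. In all 130122 union windows the shares were 23.1%, 1.34% and 2.0996%. CCGGAAG, the letters of ETS factors, was found at 16.6% of gained and 10.5% of weak retained promoter sites, and GGGCGG, those of SP1, at 40.6% and 48.9%. At the other distal sites TGANTCA, the letters of AP-1, was found at 34 of 170, against 15.2% of the 5472 weak retained distal sites and 11.4% of all union windows.

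In replicate 1, SMC1A, the core subunit, had a peak at 23.3% of the gained sites before and 44.1% after STAG2 KD, and replicate 2 gave 51.1% before and 71.9% after. For STAG1 the shares were 9.09% before and 39.3% after KD in replicate 1, and 35.8% before and 50.3% after in replicate 2. For CTCF they were 19.3% before and 22.7% after in replicate 1, and 30.7% before and 35.8% after in replicate 2. For each antibody the STAG2-KD list exceeded the WT list of the same replicate, but for SMC1A and CTCF the WT list of replicate 2 exceeded the STAG2-KD list of replicate 1.

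The mean difference, STAG2-KD minus WT, was 22.3 percentage points for STAG1, from a WT mean of 22.5% ± 18.9 to 44.8% ± 7.75 (SD, n = 2; two-sided exact permutation p = 0.333, the smallest that 2 lists against 2 allow). It was 20.9 points for SMC1A, from 37.2% ± 19.7 to 58.0% ± 19.7 (SD, n = 2; two-sided exact permutation p = 0.667). It was 4.28 points for CTCF, from 25% ± 8.13 to 29.3% ± 9.26 (SD, n = 2; two-sided exact permutation p = 0.667). None of these differences could reach 0.05 in this design, and the lists of SMC1A and CTCF overlapped between the groups. These tests ignore the pairing by replicate. Within a replicate the STAG1 difference was 30.2 points in replicate 1 and 14.4 in replicate 2. For SMC1A it was 20.9 in both, and for CTCF 3.48 and 5.08. The p-values thus do not rank the antibodies by how alike the replicates were. With sites chosen and read in 1 replicate alone, the STAG1 difference was 40.5 points without replicate 2 (2769 sites) and 7.10 without replicate 1 (12699 sites). In these 2 values the set of sites and the threshold change along with the replicate. Over all union sites the mean differences were 6.71 points for STAG1, 2.96 for SMC1A and −0.23 for CTCF. At weak retained sites they were 11.99, 2.33 and −0.76 points. In the WT lists of replicates 1 and 2, STAG1 already had a peak at 64.0% and 94.9% of weak retained sites. For SMC1A these shares were 76.8% and 94.4%. Weak retained sites thus had less room for a rise than gained sites.

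Each WT and STAG2-KD culture of a replicate has 1 input library, and the lowest expected background of the WT lists was the same for STAG1 and STAG2, at 1.716 in replicate 1 and 3.499 in replicate 2. In STAG2-KD it was 1.787 (replicate 1) and 3.615 (replicate 2) for STAG1 and 1.809 and 3.643 for STAG2. The WT values of the other antibodies differed from these, with 1.787 and 2.671 for SMC1A and 0.896 and 2.078 for CTCF. Their STAG2-KD values were 1.861 and 2.635 for SMC1A and 0.96 and 2.139 for CTCF. The part of a shared input in joint gains of the antibodies was not tested.

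**Figure D3:**
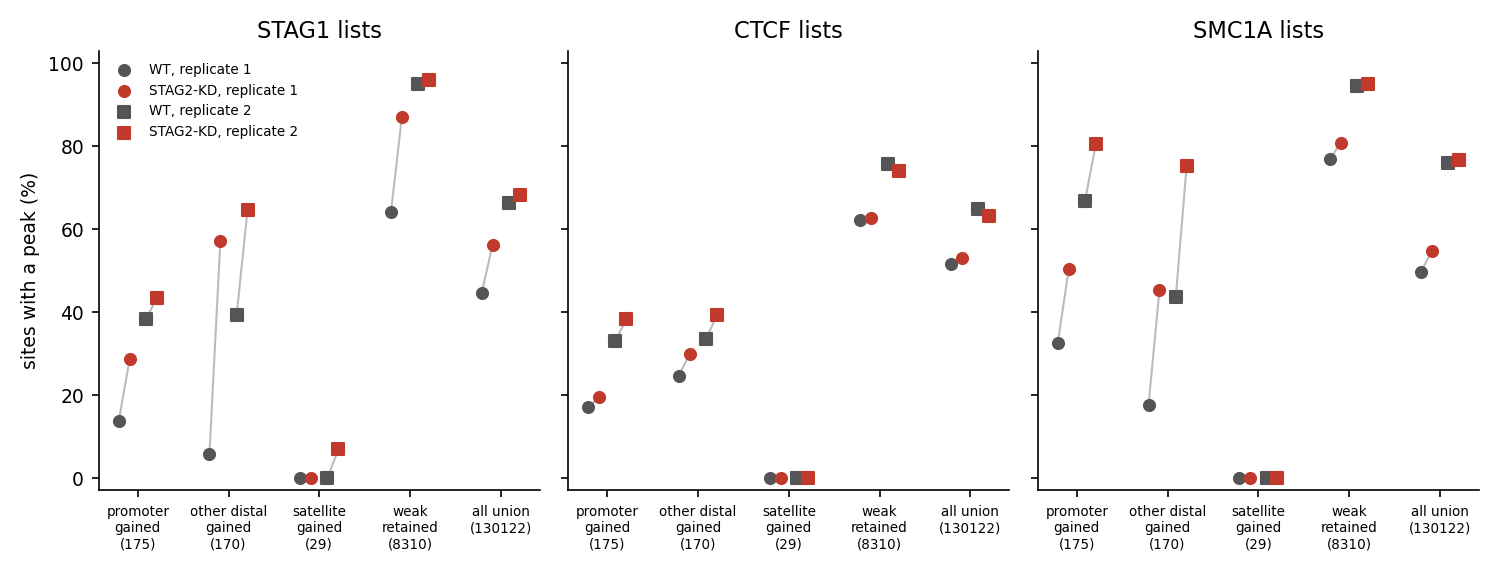
Share of sites with a peak (y axis, %) in the STAG1, CTCF and SMC1A lists of WT (grey) and STAG2-KD (red), replicate 1 as circles and replicate 2 as squares joined within a replicate, for 3 kinds of gained sites, weak retained sites and all union sites. Other distal gained sites show the steepest lines for STAG1, from 5.88% to 57.1% in replicate 1, whereas satellite sites stay at 0 in all CTCF and SMC1A lists.

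The kinds of gained sites were then read separately. At the other distal sites, STAG1 covered 5.88% of sites before and 57.1% after KD in replicate 1, then 39.4% and 64.7% in replicate 2, and both STAG2-KD lists exceeded both WT lists (38.2 points, two-sided exact permutation p = 0.333 with n = 2 per group). SMC1A went from 17.6% to 45.3% and from 43.5% to 75.3% there, again without overlap of the groups (29.7 points, two-sided exact permutation p = 0.333 with n = 2 per group). At promoter sites STAG1 went from 13.7% to 28.6% and from 38.3% to 43.4%, a difference of 10.0 points (two-sided exact permutation p = 0.667 with n = 2 per group). At weak retained promoter sites the STAG1 difference was 15.1 points, with 29.1 in replicate 1 and 0.987 in replicate 2. The difference at gained promoter sites was smaller on average and in replicate 1 (14.9 points), but larger in replicate 2 (5.14 points). In WT replicate 2, STAG1 already had a peak at 92.7% of weak retained promoter sites, which left little room for a rise. SMC1A was already present at 32.6% and 66.9% of promoter sites in the WT lists, and the STAG2-KD lists had 50.3% and 80.6%. The difference between the kinds was not tested.

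A gain in both replicates, with a peak in both STAG2-KD lists and in neither WT list of an antibody, was counted for each antibody beside all union sites. STAG1 was gained in this way at 44 gained STAG2 sites (11.8%), against 2.24% of all union sites and 2.02% of weak retained sites. It was lost in both replicates at 3 sites (0.802%, background 0.49%). SMC1A was gained at 38 sites (10.2%, background 1.62%) and lost at 3 (background 0.906%). CTCF was gained at 7 sites (1.87%, background 0.327%) and lost at 1 (background 0.539%). A site with a peak in a WT list of the antibody cannot be gained. STAG1 had such a peak at 36.4% of gained STAG2 sites, 95.1% of weak retained and 67.3% of all union sites. For SMC1A this share was 52.7% of gained STAG2 sites and 76.7% of all union sites, and for CTCF 31.6% and 65.8%. The shares of gains thus depend on how many sites were open to one. For STAG1, 7899 of 8310 weak retained sites had a WT peak and 168 were gained. Of the 374 gained STAG2 sites, 136 had a WT STAG1 peak. Among sites open to a STAG1 gain, the gained share was therefore higher at weak retained than at gained STAG2 sites. Of the 44 STAG1 gains, 35 were at other distal sites and 9 at promoter sites, and of the 38 SMC1A gains, 25 and 13. STAG1 and SMC1A were gained together at 9 of the 374 sites, in introns of GALNT17, HYDIN and LRP1B among others, and at 167 of the 130122 union sites.

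Many gained sites lacked peaks of the other antibodies. A peak counted as present if it overlapped the site, so a wider site can catch more peaks. The median site width was 396 bp for gained and 775.5 bp for weak retained sites. It was 590 bp for all union and 414.5 bp for lost sites. The part of width in the shares was not tested. No CTCF peak was present in any list at 224 of 374 sites (59.9%), against 21.7% of weak retained and 31.6% of all union sites. STAG1 was absent from all its lists at 158 sites (42.2%), against 1.41% of weak retained and 24.95% of all union sites. SMC1A was absent at 83 sites (22.2%), against 2.71% of weak retained and 15.1% of all union sites. At 55 sites (14.7%) none of the 12 other lists had a peak, and 27 of these were satellite sites. Over all union sites this share was 6.74%, and over lost sites 9.02%. Of the lost sites, 46.4% had no CTCF peak, 40.8% no STAG1 peak and 29.6% no SMC1A peak in any list. The lack of STAG1 and SMC1A was thus not particular to gained sites. The 39 gained sites with a mean percentile of 40 or more were no exception: 26 (66.7%) had no CTCF peak and 16 (41.0%) no STAG1 peak in any list, whereas 3 (7.69%) had no SMC1A peak. Of 12524 retained sites between percentiles 40 and 60, 6.84% lacked CTCF and 0.192% lacked STAG1. At 158 gained sites (42.2%) SMC1A was present in some list and CTCF in none. This share was 34.6% of lost, 21.6% of weak retained and 23.9% of all union sites. With SMC1A in all 4 of its lists and CTCF in none, the order against weak retained sites was the opposite. The shares were then 7.22% of gained, 14.7% of weak retained and 4.80% of all union sites.

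Where an antibody had a peak in WT and STAG2-KD of a replicate, the percentile of the overlapping peak was compared at the gained sites. A percentile depends on the length of its list, and in replicate 1 WT and STAG2-KD lists held 63479 and 85527 peaks for STAG1 and 82239 and 91489 for SMC1A, so that each share is given beside that of all union sites. SMC1A stood higher in STAG2-KD at 51 of 68 sites in replicate 1 (75%) and at 134 of 172 in replicate 2 (77.9%), against 58.6% and 50.9% of all union sites. Its median shift was 12.6 percentile points in replicate 1 and 13.5 in replicate 2, against 1.99 and 0.175 over all union sites. CTCF stood higher at 40 of 60 sites (66.7%) and at 67 of 99 (67.7%), against 55.4% and 42.6% of all union sites, with median shifts of 6.49 and 3.59 against 0.989 and −1.45. STAG1 stood higher at 22 of 30 sites (73.3%) and 72 of 113 (63.7%), against 78.4% and 57.1% of all union sites, with median shifts of 3.59 and 8.25 against 9.12 and 1.53. The STAG1 share in replicate 1 was thus below that of all union sites, while the shares of SMC1A and CTCF were above it in both replicates. With peaks whose summits lay inside the site or within 100 bp of it, a restriction added after the data were seen, the shares were 75.8% and 76.3% for SMC1A, 67.9% and 70.0% for CTCF, and 73.3% and 62.5% for STAG1. These shifts were not tested.

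The 10 strongest gained sites, by the sum of their ranks in the STAG2-KD lists, included 6 at promoters. The first was intergenic, on chromosome 19 (15334125 to 15334528), where STAG2 reached 12.3-fold enrichment in replicate 1 and 5.99-fold in the second replicate. Its other peaks were in STAG2-KD replicate 2, with 2.75-fold enrichment for STAG1 and 3.03-fold for SMC1A. The second covered the start of IFTAP, a gene of intraflagellar transport, within RAG2 (chromosome 11, 36615716 to 36616148), with STAG2 at 12.3 and 5.71. SMC1A had a peak there in both STAG2-KD lists, at 5.65 and 3.96, and in neither WT list, and STAG1 and CTCF had none.

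The EXOSC2 site (chromosome 9, 133568774 to 133569272), at the promoter of an RNA exosome subunit, had STAG2 folds of 8.96 and 5.92 and 1 other peak, SMC1A in STAG2-KD replicate 2. At the start of FBXO48 and APLF, a DNA repair factor (chromosome 2, 68694233 to 68694820), STAG2 stood at 13.5 and 4.90. SMC1A was at 5.89 in STAG2-KD replicate 1 and had peaks in both lists of replicate 2. CTCF peaks of STAG2-KD replicate 1 and of both lists in replicate 2 reached into the site with their summits outside it. At the start of THTPA, a thiamine triphosphatase (chromosome 14, 24024961 to 24025728), STAG2 stood at 7.44 and 6.21, and the EFCAB6 start (chromosome 22, 44207763 to 44208565) had 7.86 and 5.78. At both of these promoters SMC1A had a peak in both lists of replicate 2 and in none of replicate 1, and CTCF had none.

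Of the 4 strongest sites outside promoters, 2 had CTCF peaks. An intron of PAK5, a kinase gene (chromosome 20, 9699165 to 9699862), had STAG2 at 5.47 and 8.03 and CTCF in both STAG2-KD lists, at 8.16 and 7.65, and in neither WT list. An intergenic site on chromosome 14 (96445955 to 96446471) had CTCF in all 4 lists, with folds of 12.1 (WT) and 16.3 (STAG2-KD) in replicate 1 and 11.6 and 18.2 in replicate 2. STAG1 went from 4.02 to 12.9 and from 6.86 to 8.02 at this site, and SMC1A, absent from WT replicate 1, reached 8.01 there in STAG2-KD and went from 4.44 to 10.2 in replicate 2. At this site every antibody thus stood higher in STAG2-KD. An intron of FBXO31, an F-box gene (chromosome 16, 87421690 to 87422412), had STAG2 at 8.64 and 5.47 and no CTCF peak. Here STAG1 and SMC1A had peaks in replicate 1 in STAG2-KD alone, at 4.14 and 5.35, whereas in replicate 2 STAG1 was at 3.16 (WT) and 2.97 (STAG2-KD) and SMC1A at 4.02 and 2.99.

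At the LRP1B site (chromosome 2, 141452842 to 141453040), all 3 other antibodies were gained in both replicates, as at no other of the 130122 union sites. STAG2 stood at 3.77 and 3.89 there. STAG1 stood at 7.39 and 3.69 in the STAG2-KD lists, CTCF at 5.34 and 6.55, and SMC1A at 5.65 and 3.90. The site lies in an intron of LRP1B, which encodes a lipoprotein receptor-related protein.

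Gene lists were searched within 10 kb for gained sites. Of 20090 protein-coding genes, 404 (2.01%) had one, and in lists of 18 to 42 genes the counts below are too small to be told from that share. Of 8 lists, 6 had none, which were those of interferon-stimulated genes (0 of 42 genes), interferon receptors and signal transducers (0 of 18), antigen presentation (0 of 20), the melanocyte lineage (0 of 20), the dedifferentiated melanoma state (0 of 18) and cohesin and its regulators (0 of 21). A union site of any kind was present at 41 of the 42 interferon-stimulated genes. The 2 lists with gained sites were of MAPK feedback and ERK targets (1 of 20 genes) and of melanoma drivers and tumour suppressors (2 of 25), through MYC and CDK4.

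The CDK4 promoter, of a cell cycle kinase (chromosome 12, 58146018 to 58146400), had STAG2 at 3.53 and 4.34. SMC1A was present there in all 4 lists, with 3.95 (WT) and 3.798 (STAG2-KD) in replicate 1 and 2.995 and 5.06 in replicate 2, and neither STAG1 nor CTCF had a peak. At the 3′ end of MYC, a growth-promoting transcription factor, a pair of neighbouring sites was gained (chromosome 8, 128754589 to 128754757 and 128755011 to 128755785). At the second, STAG2 stood at 3.07 and 3.17, STAG1 folds in replicate 1 were 5.57 (WT) and 9.39 (STAG2-KD), and those of SMC1A were 5.91 and 9.59. At the first, STAG2 stood at 4.47 and 2.37, and SMC1A in replicate 1 was at 6.82 in WT, while the STAG2-KD peak reaching into it, at 4.14, had its summit outside the site. The STAG1 peak of STAG2-KD replicate 1 at the second site also reached into the first. In STAG2-KD replicate 2, STAG1 and SMC1A each had 1 wide peak over the gene whose summit lay outside both sites, so its fold does not describe them. CTCF had no peak at either.

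The satellite sites stood apart from all others. They had 9 to 31 copies of GGAAT or ATTCC within 100 bp of the summit, with a median of 20, while the other 345 gained sites had at most 3. Such arrays were taken as windows with 8 or more copies, a limit set after the values were seen. All 29 sites of this kind in both STAG2-KD lists were gained sites, and none of the 50010 retained and 3492 lost sites was of this kind. They lay on chromosomes 1, 2, 4, 7, 9, 10, 16, 17, 20 and 21, with 7 on chromosome 10 (38785625 to 42377709) and 5 on chromosome 21 (10084966 to 10844346).

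Across the lists, peaks with summits in such arrays were counted without regard to the union sites. The STAG2-KD STAG2 lists held 122 in replicate 1 and 86 in replicate 2, and the WT STAG2 lists 3 and 7. The other 12 lists held 0 to 12, with the highest number in STAG1 of STAG2-KD replicate 2. The arrays were thus listed in number with 1 antibody in 1 kind of culture, in both replicates. These peaks were 0.209% and 0.0810% of the STAG2-KD STAG2 lists. CTCF and SMC1A had no peak at any of the 29 sites, and STAG1 had one at 2 of them, in STAG2-KD replicate 2.

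**Figure D4:**
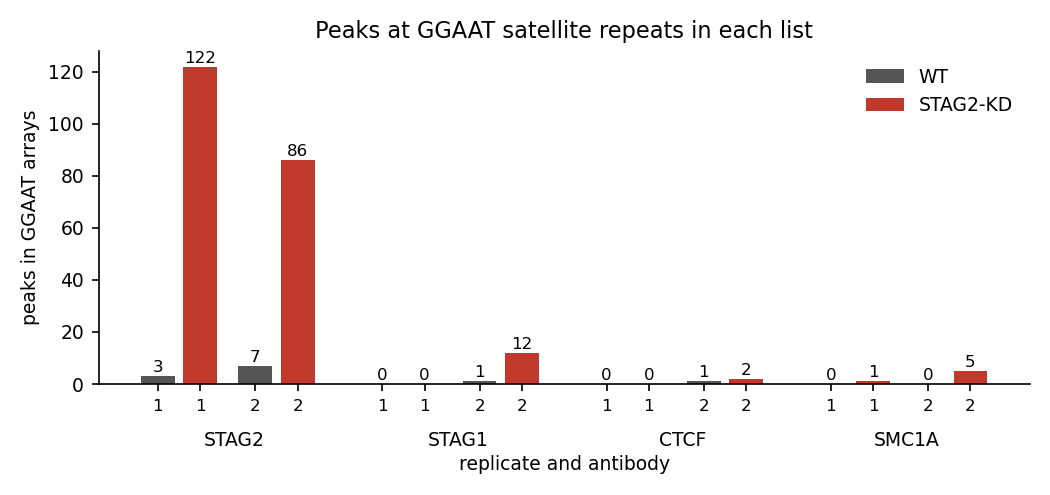
Number of peaks with a summit in a GGAAT array (y axis) in each of the 16 lists, by antibody and replicate (x axis), WT grey and STAG2-KD red. The STAG2 lists of STAG2-KD hold 122 and 86, and every other list 12 or fewer.

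The satellite peaks rested on small enrichments over a high local background. Their median fold enrichment was 2.45 in replicate 1 and 1.89 in replicate 2, against 4.99 and 3.60 at promoter sites and 4.33 and 3.77 at other distal sites. The expected background at the summit, recovered from the fold and p-value, was a median of 10.3 times the lowest of the list in replicate 1 and 5.87 times in replicate 2, with highest values of 41.6 and 14.4. At promoter sites the medians were 1.23 and 1.54. A background above 5 times the lowest was found at 26 of 29 satellite and 4 of 345 other gained sites in replicate 1, and at 20 of 29 and 0 of 345 in replicate 2. Reads from such repeats can align at several places, and the part of alignment, of the input and of copy number in these peaks was not tested.

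**Figure D5:**
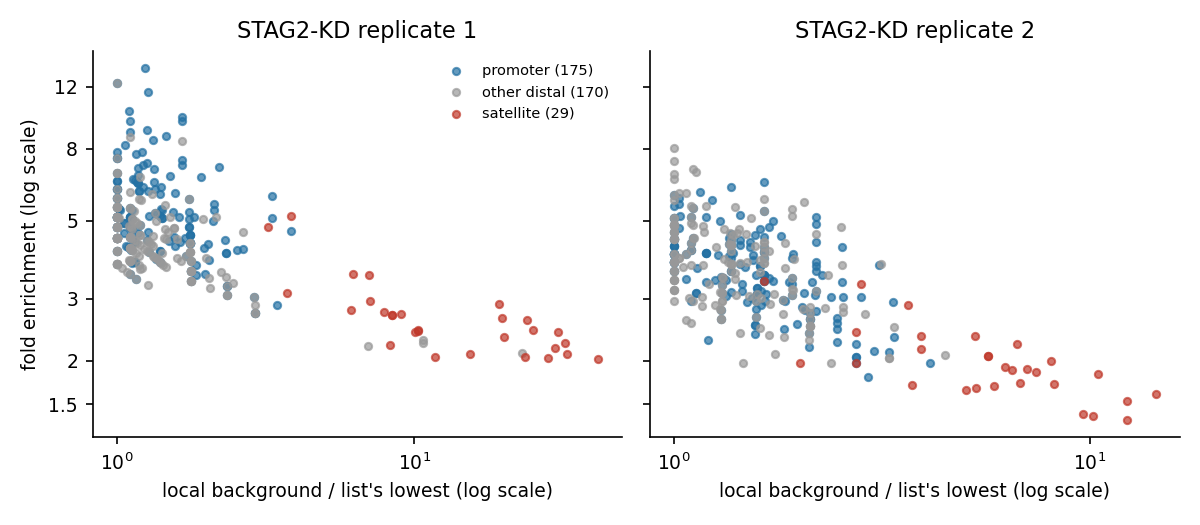
Fold enrichment (y axis, log scale) against the local expected background relative to the lowest of the list (x axis, log scale) for the 374 gained sites in each STAG2-KD list, coloured by kind. Satellite sites lie at high background and low fold, with median background ratios of 10.3 and 5.87, and promoter sites near 1, with medians of 1.23 and 1.54.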

How the data were processed

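ChIP-seq libraries of M14 cells were grouped by antibody and culture from the labels. The study aligned reads to hg19 by bowtie2 and called peaks by MACS2 with input as control. The submitters' processing notes name BWA for replicate 2, so its aligner is uncertain. The deposited lists give a score, a fold enrichment (ratio of pileup to expected background), −log10 p-value and −log10 q-value, as the authors' MACS2 wrote them. Replicate 1 lists were limited by −log10 q-value (at least 2) and replicate 2 lists by −log10 p-value (at least 2), so gains mix differing thresholds.

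Peaks overlapping by 1 bp were merged into union sites, and presence was read per list. The lists hold no read depth, and shares and intervals cover counting error alone. Sites were placed by midpoint in GENCODE 44 lifted to hg19, in the order promoter, exon, intron and intergenic, and 0 peaks passed a chromosome end. The background at a summit was solved from fold and p-value. The lowest of a list was taken as the most frequent value among sampled peaks with a single solution. Shares of the libraries were compared by exact permutation in SciPy (Python, pysam, samtools), after functions had been tested on simulated lists. The gained sites, gene lists and comparisons were chosen with earlier results of these data known. Named sites were the 10 with the lowest rank sum in the STAG2-KD lists, those with all 3 other antibodies gained, and those within 10 kb of a listed gene. One of these sites is not reported here. The labels do not say whether replicates were separate cultures, so p-values measure the spread between these libraries, which may be technical.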

Additional observations from a re-analysis of the deposited data

How the results depend on the processing

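The number of gained sites, 374, depends on how the lists are cut. It was 732 under a −log10 q-value of at least 5 in every list, 2402 with an equal number of the strongest peaks (58418) from each STAG2 list, and 2769 to 12699 with 1 replicate left out, since a gain in a single replicate then suffices. A common −log10 q-value of at least 2, an overlap of 50%, no WT STAG2 peak within 500 bp and leaving out satellite sites gave 547, 431, 323 and 345. The promoter share was 65.0% under the stricter threshold, 61.5% within 5 kb of a start, and 19.3% to 42.9% with 1 replicate left out; without replicate 1 it was 19.3%, below the 21.0% of all union sites. Leaving out replicate 1 also leaves only lists limited by p-value and drops the need for agreement, so several choices change at once. The CTCF core share was 9.70% under the stricter threshold, 11.7% with equal list lengths, 2.94% within 50 bp, 1.604% with a stricter core, and 5.72% to 9.03% with 1 replicate left out. The cause of these changes was not tested.

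The differences of STAG1, SMC1A and CTCF shares kept their direction in all alternatives that could change it. They were 21.9 to 26.4, 14.1 to 23.02 and 4.33 to 5.75 points with both replicates. With 1 replicate left out they were 7.10 to 40.5, 22.6 to 26.2 and 5.25 to 7.62. With the replicate block, the last of 9 alternatives, the values were 22.3, 20.9 and 4.28. These equal the main values by construction, so their direction was fixed. The exact sign-flip test gave p = 0.5 for each, the smallest that 2 pairs allow. Leaving out satellite sites was added after the data were seen. Presence at a threshold is not a test of binding, and a peak just under it counts as absent.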

Other observations

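Gained sites were spread over the chromosomes. Chromosome 19 held 34 of 374 (9.09%), against 3.01% of all union sites, and chromosome X held 7 (1.87%), against 3.51%. Of neighbouring pairs of gained sites, 5 lay within 1 kb and 37 within 100 kb. The nearest lost site was a median of 334 kb away and the nearest retained site 13.5 kb, with 11.6 kb for promoter sites and 56.5 kb for satellite sites.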
